A study of Mus musculus with 8 samples.

Results

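The Dlk1-Dio3 domain is an imprinted region of mouse chromosome 12 in which 3 protein-coding genes are known to be expressed from the paternal chromosome (Dlk1, Rtl1 and Dio3) and 3 long non-coding RNAs from the maternal one (Meg3, Rian and Mirg). These 6 genes, found by name among the 20926 genes of the expression table, were described in molar mesenchyme of control mice and of mice with Cre-mediated deletion of Ezh2. They were selected with earlier results of the same comparison known, so their differences between groups are given as a description and without a test. The tests below are on other genes: those lying between and beside the 6, which position alone chose, and lists of genes with related roles. The lists were also chosen with earlier results of these data known, so their counts and p-values are likewise a description. The values sum the reads of both chromosomes, so paternal and maternal copies were not told apart, and "paternal" and "maternal" are names taken from what is known of each gene.

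In imprinted domains a differentially methylated region sets which parental copy of each gene is used. In this domain the methylated state of that region on the paternal chromosome goes with expression of the coding genes, and the unmethylated maternal copy goes with expression of the non-coding RNAs, which are the hosts of a large group of microRNAs and small nucleolar RNAs. The domain is known for its part in prenatal growth, fat and muscle differentiation and thyroid hormone control. Ezh2 is the methyltransferase of Polycomb repressive complex 2 (PRC2), which trimethylates lysine 27 of histone H3.

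RNA-seq was made of molar mesenchyme from mice at postnatal day 3, labelled as strain C57BL/6 (the study's methods describe a mixed background), after the epithelium had been dissected away. The 4 control libraries were from Ezh2fl/fl mice and the other 4 from Osr2-Cre;Ezh2fl/fl mice, so that both groups carried the floxed Ezh2 allele and only the latter carried Cre. Cre was expressed from the Osr2 locus, which is active in dental mesenchyme, and cells of other lineages in the tissue keep Ezh2. The values are a signal scaled between libraries by the authors, with no correction for gene length, and the estimated depth was 48.3 M to 68.8 M reads per library. Nothing in the labels says how many animals each library holds or whether they differ between libraries, so the spread between libraries may be technical in part. In bulk tissue, fewer cells of a type and less RNA per cell cannot be told apart.

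Control libraries 1 to 4 had Ezh2 at 55.0, 38.3, 39.6 and 39.0. Libraries 1 to 4 of the Osr2-Cre;Ezh2fl/fl group had it at 35.2, 30.1, 23.2 and 36.0. The groups did not overlap, but the log2 fold change of -0.46 (SE 0.16) had an adjusted p of 0.235 from limma. In the study, immunofluorescence of newborn Osr2-Cre;Ezh2fl/fl molars detected neither Ezh2 protein nor trimethylated H3K27 in the mesenchyme. RNA summed over the whole gene and all cells of the tissue does not measure this. Control libraries 1, 3 and 4 and Osr2-Cre;Ezh2fl/fl library 4 held Xist, the RNA of the inactive X chromosome, at 518, 767, 669 and 401, together with Ddx3y of the Y chromosome at 46.4, 43.5, 31.2 and 56.9, so transcripts of both sexes were in each of them. Xist was at 0.373 and 0.414 in control library 2 and Osr2-Cre;Ezh2fl/fl library 1. Osr2-Cre;Ezh2fl/fl libraries 2 and 3 stood apart from the other 6 in having Ddx3y at 0.0455 and 0.0424 against 31.2 to 82.6. Their Xist values, 1955 and 2648, were the highest, so these 2 libraries held RNA of females only, as no control library did. Sex was thus unevenly divided between the groups, and its part in the differences was not tested. The fold changes of the members, the ratios between them and the calls are therefore also given without these 2 libraries. All 8 dental mesenchyme markers were present, with summed values of 451 to 550 in control and 542 to 601 in Osr2-Cre;Ezh2fl/fl libraries. The summed values of the 7 enamel epithelium markers ran from 2220 to 31754 and from 2202 to 13320, so epithelial transcripts remained in both groups. Their part in the results was not tested.

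The sequences at the starts of the genes are shown first, to give the CG dinucleotides at which methylation can occur. Each run is a RefSeq promoter of 300 bases on build GRCm38.p6, from 250 bases before the start to 50 after it, written 5′ to 3′ on the strand of the gene with each CG in capitals. Promoter entries were found for 5 of the 6 members, all except Rtl1, and for Dio3os, the transcript on the opposite strand beside Dio3. CG reads the same on both strands.
Dlk1, chr12:109452573-109452872, plus strand: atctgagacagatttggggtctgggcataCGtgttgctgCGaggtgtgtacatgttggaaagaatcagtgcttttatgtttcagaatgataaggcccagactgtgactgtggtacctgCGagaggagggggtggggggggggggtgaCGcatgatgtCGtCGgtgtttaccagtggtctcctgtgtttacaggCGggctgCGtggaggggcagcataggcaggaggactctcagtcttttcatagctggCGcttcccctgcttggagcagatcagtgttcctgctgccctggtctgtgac
Meg3, chr12:109540746-109541045, plus strand: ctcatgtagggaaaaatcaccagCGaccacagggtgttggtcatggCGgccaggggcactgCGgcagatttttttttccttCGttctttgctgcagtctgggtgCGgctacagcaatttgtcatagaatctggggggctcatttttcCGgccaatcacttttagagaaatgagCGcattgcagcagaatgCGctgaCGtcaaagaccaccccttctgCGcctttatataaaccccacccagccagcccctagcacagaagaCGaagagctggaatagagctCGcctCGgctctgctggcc
Rian, chr12:109603695-109603994, plus strand: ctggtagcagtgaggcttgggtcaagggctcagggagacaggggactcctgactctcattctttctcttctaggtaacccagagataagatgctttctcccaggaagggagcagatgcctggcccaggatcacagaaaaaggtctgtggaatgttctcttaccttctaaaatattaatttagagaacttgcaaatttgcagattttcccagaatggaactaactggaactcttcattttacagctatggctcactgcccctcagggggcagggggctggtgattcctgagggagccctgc
Dio3, chr12:110278980-110279279, plus strand: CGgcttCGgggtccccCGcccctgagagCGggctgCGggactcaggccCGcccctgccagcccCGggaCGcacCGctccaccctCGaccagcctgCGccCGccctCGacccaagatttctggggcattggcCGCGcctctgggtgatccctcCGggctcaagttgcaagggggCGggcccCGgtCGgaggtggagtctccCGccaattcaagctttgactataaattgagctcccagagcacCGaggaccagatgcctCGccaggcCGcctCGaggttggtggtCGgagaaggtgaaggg
Dio3os, chr12:110278019-110278318, minus strand: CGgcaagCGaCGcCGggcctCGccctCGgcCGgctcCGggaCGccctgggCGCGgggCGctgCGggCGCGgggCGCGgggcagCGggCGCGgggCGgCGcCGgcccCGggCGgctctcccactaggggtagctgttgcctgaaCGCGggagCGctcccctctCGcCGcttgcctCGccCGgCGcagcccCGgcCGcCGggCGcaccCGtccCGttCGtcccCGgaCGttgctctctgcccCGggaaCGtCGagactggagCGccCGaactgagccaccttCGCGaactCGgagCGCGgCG
Over all 32851 promoters of this length the median was 7 CG. Dlk1 held 9, the first Meg3 start 13 and Mirg 10, and 45.8%, 37.9% and 43.5% of all promoters held at least as many. A further Meg3 start (chr12:109545148-109545447, plus strand) held 1, which 94.6% reached. Dio3 held 25, which 18.4% of promoters reached, and Dio3os held 53, which 0.451% reached. Rian held 0, as did 5.43% of all promoters. The bases around the Dio3 start thus held the most CG of any member with a promoter entry, and those of Dio3os still more. RefSeq and the annotation used for the gene coordinates place the starts of Dio3, Dio3os and Mirg differently, so these windows are those of the RefSeq starts. Methylation was not measured in these libraries, and a link between CG number and the differences in expression was not tested.

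Of the paternally expressed genes, Dio3 and Dlk1 were higher in every Osr2-Cre;Ezh2fl/fl library than in any control library, while Rtl1 was near the detection limit. Dio3 (chr12:110279068-110281097, plus strand) encodes the deiodinase that inactivates thyroid hormone. Control libraries 1 to 4 gave 21.0, 31.9, 22.6 and 27.5. The same numbers of the Osr2-Cre;Ezh2fl/fl group gave 68.0, 98.4, 116.7 and 92.6. The lowest Osr2-Cre;Ezh2fl/fl library was 2.13 times the highest control, so the groups were well apart. The means were 25.8 ± 4.95 and 93.9 ± 20.1 (SD, n = 4 each), so that the second was 3.65 times the first, with a log2 fold change of 1.82 on the log2(value + 1) scale (SE 0.21). Of the 14854 genes tested, 99.9% had a lower log2 fold change. Without Osr2-Cre;Ezh2fl/fl libraries 2 and 3 the log2 fold change was 1.61.

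Dlk1 (chr12:109452823-109463336, plus strand) encodes a membrane and secreted protein of the Delta-like family that restrains differentiation of preadipocytes. Its control values were 11.5, 10.1, 11.7 and 8.24 in libraries 1 to 4, and the corresponding Osr2-Cre;Ezh2fl/fl values were 16.0, 23.6, 16.1 and 18.5. Again every Osr2-Cre;Ezh2fl/fl library lay above every control, but the lowest of them was only 1.36 times the highest control. The means were 10.4 ± 1.61 and 18.5 ± 3.54 (SD, n = 4 each), a ratio of 1.78 and a log2 fold change of 0.77 (SE 0.16), and 98.9% of the genes tested had a lower one. It was 0.69 without libraries 2 and 3. The difference at Dlk1 was thus smaller than that at Dio3, with both at the outer ends of the domain.

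Rtl1 (chr12:109589193-109600330, minus strand) is a gene derived from a retrotransposon and is known for its role in the capillaries of the placenta. It was read 17 to 30 times in each control library and 10 to 25 times in each Osr2-Cre;Ezh2fl/fl library, which left it below the filter on low values. In library order the controls had 0.347, 0.241, 0.499 and 0.468, against 0.493, 0.263, 0.255 and 0.142 with Osr2-Cre. The groups overlapped, since Osr2-Cre;Ezh2fl/fl library 1 nearly equalled the highest control and control library 2 lay among the lowest. The ratio of means was 0.741, and the log2 fold change was -0.11 (SE 0.10) with a pseudocount of 1 and -0.37 with a pseudocount of 0.1. Without Osr2-Cre;Ezh2fl/fl libraries 2 and 3 it was -0.09 with a pseudocount of 1.

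Rtl1 also shares its bases with the maternal strand. RefSeq places 58 microRNA hairpins between Dlk1 and Dio3, with 114 mature sequences, and 6 of the hairpins lie opposite Rtl1. From these 6, 11 mature microRNAs are complementary over their whole length to the Rtl1 transcript of 6358 bases. Shown here are 2 of them with their sites, to let the pairing of the strands be seen. The seed, bases 2 to 8, is in capitals, and each site is the Rtl1 strand, 5′ to 3′.
miR-127-3p: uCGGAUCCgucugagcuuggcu
site of miR-127-3p, from base 2642 of the transcript: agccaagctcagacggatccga
miR-433-3p: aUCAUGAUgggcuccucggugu
site of miR-433-3p, from base 3749 of the transcript: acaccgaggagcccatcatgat
Whether the counting used strand is not given in the sources used here, so the few reads at Rtl1 cannot be assigned to the coding transcript or to the one opposite. Mature microRNAs are too short for these libraries and were not measured.

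The maternally expressed RNAs were higher on average in Osr2-Cre;Ezh2fl/fl molars too, but in each of them the groups overlapped. Meg3 (chr12:109541001-109571726, plus strand), a long non-coding RNA known as a growth suppressor in human cells, was at 126.5, 93.7, 84.3 and 72.9 in control libraries 1 to 4. In the Osr2-Cre;Ezh2fl/fl group the 4 values were 122.9, 175.9, 197.9 and 126.3. Control library 1 lay above Osr2-Cre;Ezh2fl/fl libraries 1 and 4, and the highest values were in the 2 libraries without Ddx3y. The means were 94.3 ± 23.0 and 155.7 ± 37.1 (SD, n = 4 each), a ratio of 1.65, with a log2 fold change of 0.72 (SE 0.24) that was 0.43 without those libraries.

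Rian (chr12:109603940-109661716, plus strand) is the host of the domain's box C/D small nucleolar RNAs, 13 of which the annotation places inside it. Control libraries 1 to 4 had 115.3, 106.3, 99.8 and 93.4, and their Osr2-Cre;Ezh2fl/fl counterparts by number had 108.0, 131.1, 125.9 and 117.6. The 3 highest values were all from Osr2-Cre;Ezh2fl/fl libraries, but library 1 of that group lay below control library 1. The ratio of means was 1.16 and the log2 fold change 0.22 (SE 0.09), or 0.12 without libraries 2 and 3.

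Mirg (chr12:109729764-109749460, plus strand) carries 14 of the microRNA hairpins on its own strand. Its values were low, namely 2.47, 2.33, 2.49 and 2.03 in control libraries 1 to 4, against 2.62, 2.81, 2.42 and 3.14 with Osr2-Cre. Here Osr2-Cre;Ezh2fl/fl library 3, the highest of all for Meg3, was the lowest of its group. The ratio of means was 1.18 and the log2 fold change 0.17 (SE 0.07), and it was 0.22 without libraries 2 and 3.

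**Figure D1:**
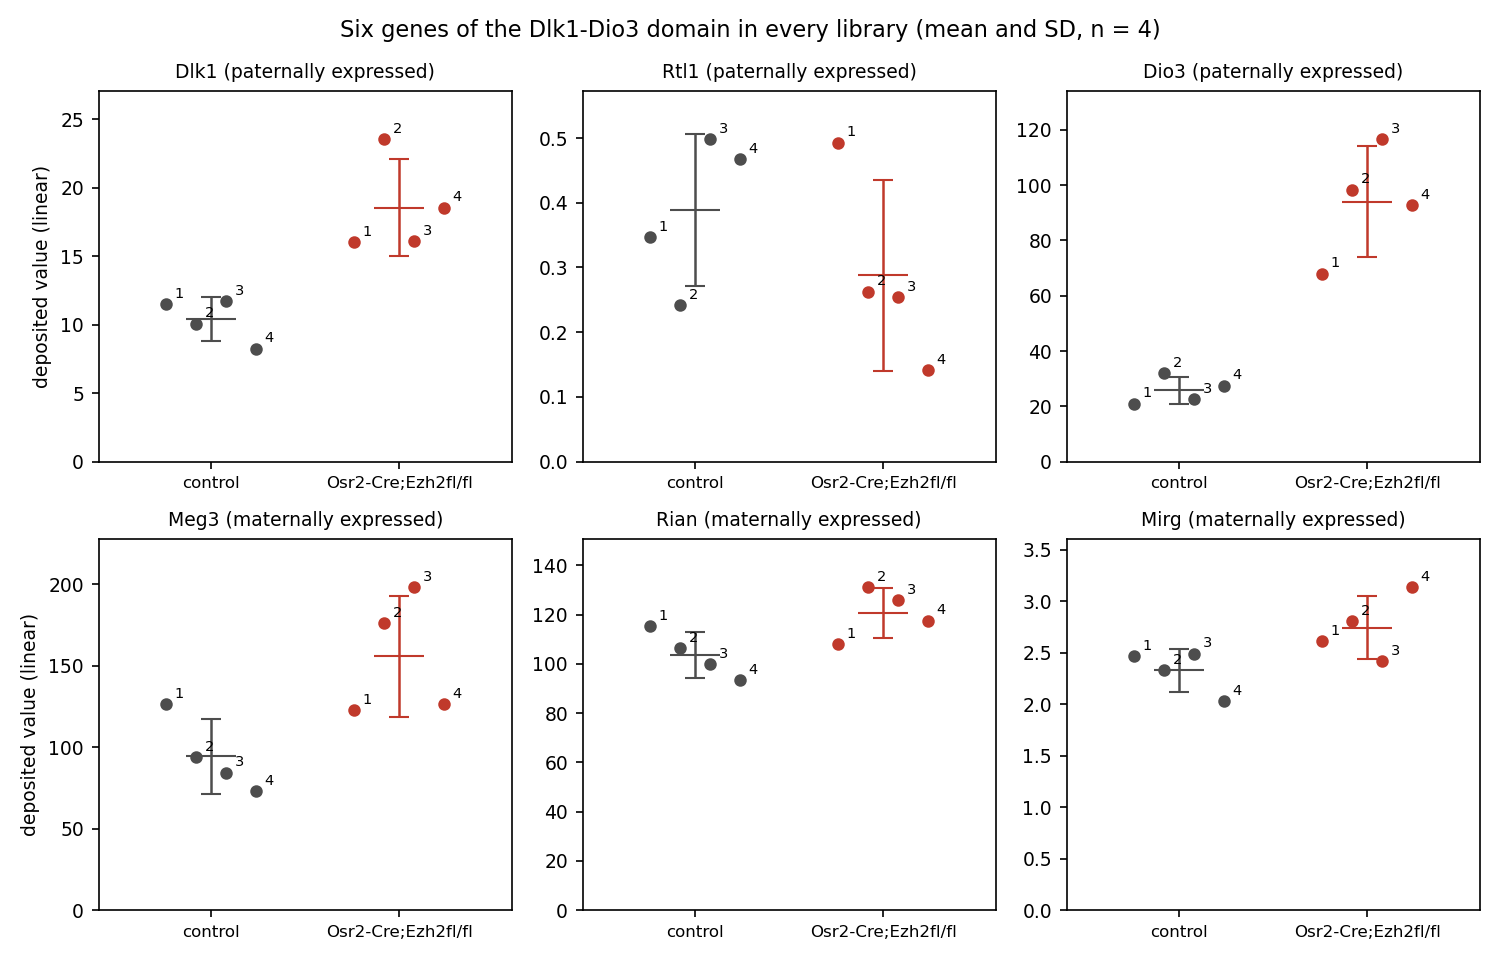
Deposited values of the 6 genes on linear axes from 0, with a point for each library numbered 1 to 4, a bar at the group mean and whiskers of 1 SD (n = 4). The groups are apart for Dlk1 (8.24 to 11.7 and 16.0 to 23.6) and Dio3 (21.0 to 31.9 and 68.0 to 116.7) and overlap for Rtl1, Meg3, Rian and Mirg.

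In all, 5 of the 6 genes passed the filter, and 2 of them, Dio3 and Dlk1, were higher without overlap, both of them paternal. None was lower without overlap and 4 overlapped. Among all 14854 genes tested, 5.76% were higher without overlap in Osr2-Cre;Ezh2fl/fl molars and 2.77% lower. As the 6 were chosen on this contrast, nothing was read from their count against these shares. The median log2 fold change of all genes tested was 0.01.

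The levels of the 6 genes can be set side by side only per kilobase of exon. On that scale Dio3 was the highest in the controls, with 12.7 ± 2.44 (SD, n = 4) per kilobase. Rian followed at 5.69 ± 0.514 and Meg3 at 5.22 ± 1.27, which do not differ beyond their spread. Dlk1 stood at 1.84 ± 0.285, Mirg at 0.320 ± 0.0289 and Rtl1 at 0.0611 ± 0.0185, each apart from its neighbours. In Osr2-Cre;Ezh2fl/fl molars Dio3 was at 46.3 ± 9.90 per kilobase, Meg3 at 8.61 ± 2.05, Rian at 6.62 ± 0.554 and Dlk1 at 3.28 ± 0.626. On this scale of all exons the order of Meg3 and Rian by mean level was reversed there, and their ranges of 6.79 to 10.9 and 5.92 to 7.19 overlapped. The lengths depend on the annotation: with the longest transcript in place of all exons, Rian was at 12.8, Dio3 still at 12.7 and Meg3 at 6.48 in the controls. In Osr2-Cre;Ezh2fl/fl molars Rian was then at 14.9 and Meg3 at 10.7. The nearness of Meg3 and Rian in the controls and the reversal of their order thus held only with all exons.

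The ratio of a maternal RNA to a paternal gene within a library asks whether the 2 sides of the domain shifted together, and does not depend on the scaling between libraries. The log2 ratio of Meg3 to Dlk1, both per kilobase, was 1.78, 1.54, 1.17 and 1.47 in control libraries 1 to 4, against 1.26, 1.22, 1.94 and 1.09 with Osr2-Cre. The groups overlapped, with means of 1.49 ± 0.25 and 1.38 ± 0.38 (SD, n = 4 each), and their difference of -0.11 (SE 0.23) was smaller than that spread. This small difference rested on single libraries: it was -0.30 without Osr2-Cre;Ezh2fl/fl library 3, -0.01 without Osr2-Cre;Ezh2fl/fl library 4 or control library 1, -0.22 without control library 3, and -0.07 and -0.06 without Osr2-Cre;Ezh2fl/fl libraries 1 and 2. It was -0.31 without both libraries lacking Ddx3y. The log2 ratio of Rian to Dlk1 was lower in all 4 Osr2-Cre;Ezh2fl/fl libraries, with 1.40 to 1.81 in the controls against 0.79 to 1.28. Mirg to Dlk1 showed the same separation, with mean log2 ratios of -2.51 and -3.11. Without the libraries lacking Ddx3y the differences of these 2 ratios, -0.61 and -0.60 over all libraries, were -0.62 and -0.44.

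Against Dio3 every maternal RNA was lower in Osr2-Cre;Ezh2fl/fl libraries. The log2 ratio of Meg3 to Dio3 was -0.56, -1.60, -1.26 and -1.75 in control libraries 1 to 4. It was -2.30, -2.32, -2.39 and -2.71 with Osr2-Cre, with no overlap. That of Rian to Dio3 went from a mean of -1.14 ± 0.34 to -2.78 ± 0.23 (SD, n = 4 each), and that of Mirg to Dio3 from -5.30 to -6.92. The differences of the 3 ratios, -1.14, -1.64 and -1.63, were -1.21, -1.52 and -1.34 without the libraries lacking Ddx3y. The ratios to Rtl1 went the other way, with overlapping groups and the few reads of Rtl1 behind them: the log2 ratio was higher on average in Osr2-Cre;Ezh2fl/fl libraries by 1.24 for Meg3, 0.73 for Rian and 0.75 for Mirg (0.93, 0.62 and 0.80 without the libraries lacking Ddx3y). Between the paternal genes, the log2 ratio of Dio3 to Dlk1 was 2.34 to 3.22 in control and 3.54 to 4.34 in Osr2-Cre;Ezh2fl/fl libraries, a difference of means of 1.03, or 0.90 without those libraries. Among the maternal RNAs, the mean log2 ratio of Rian to Meg3 was 0.15 ± 0.21 in control and -0.35 ± 0.25 in Osr2-Cre;Ezh2fl/fl libraries, and that of Mirg to Meg3 was -4.00 ± 0.27 and -4.49 ± 0.45 (SD, n = 4 each), both with overlapping groups. The differences of -0.50 (SE 0.16) and -0.49 (SE 0.26) were -0.31 and -0.13 without the libraries lacking Ddx3y. The log2 ratio of Mirg to Rian was -4.15 ± 0.10 in control and -4.14 ± 0.21 in Osr2-Cre;Ezh2fl/fl libraries, which is well within the spread.

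**Figure D2:**
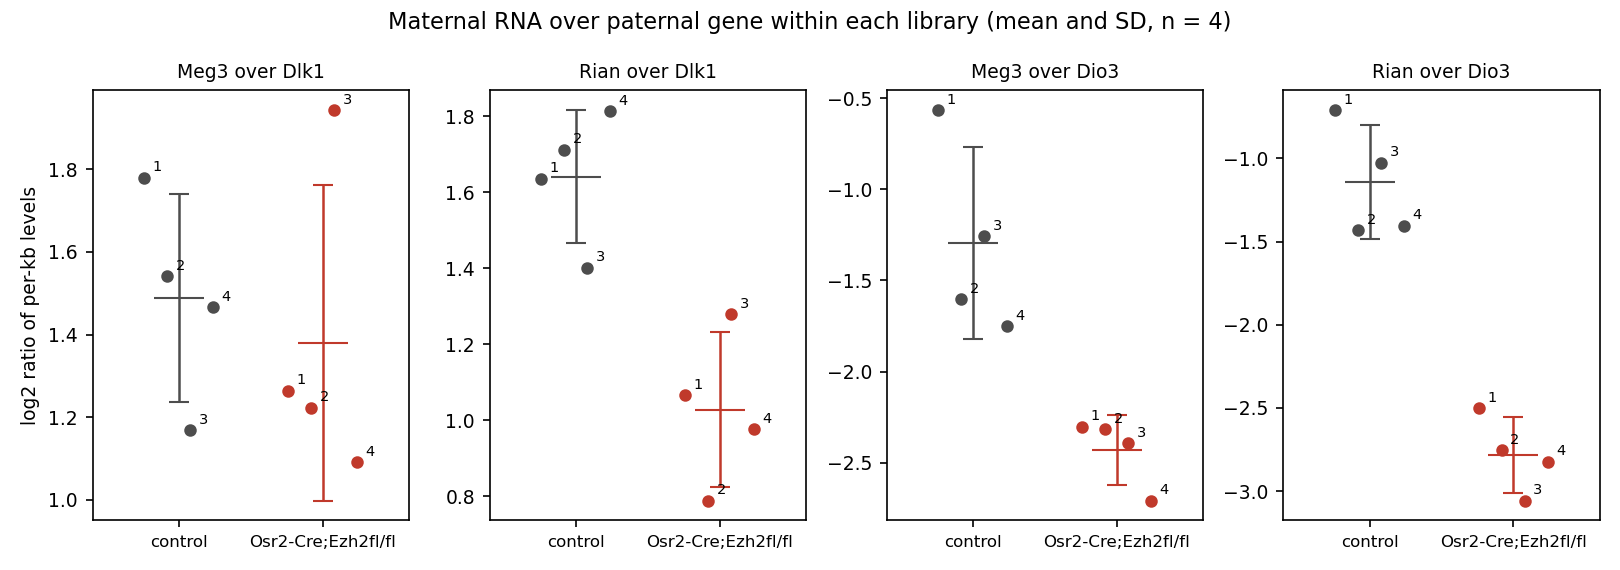
Log2 of the per-kilobase level of a maternal RNA over that of a paternal gene in each library, numbered 1 to 4, with the mean and 1 SD of each group (n = 4). Meg3 over Dlk1 overlaps (means 1.49 and 1.38), while Rian over Dlk1, Meg3 over Dio3 and Rian over Dio3 are lower in all 4 Osr2-Cre;Ezh2fl/fl libraries.

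Within groups, Meg3 and Rian varied together. After the group means were subtracted from log2(value + 1), their Pearson r over the 8 libraries was 0.92, higher than the r of Rian with 99.0% of the genes tested. Osr2-Cre;Ezh2fl/fl libraries 2 and 3 had the highest values of both. The r of Dlk1 was 0.42 with Meg3, 0.66 with Rian and 0.70 with Mirg, but -0.14 with Dio3 at the other end of the domain. Mirg had an r of -0.02 with Meg3 and of 0.29 with Rian. That of Dio3 was 0.25 with Meg3, 0.29 with Rian and -0.32 with Mirg. These values describe 8 libraries that share a scaling, and so few points allow no more than a description.

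By the same measure, Gm21781 and Camta2 were among the genes most like Meg3 (r = 0.99 and 0.98). Those most like Rian were Abca5, Pnisr and Chml (0.98 each). Dlk1 was most like Disc1, Ccdc97 and Wdr44 (0.98, 0.97 and 0.97), and Mirg was most like Atad2, AL591582.1 and E430024P14Rik (0.99, 0.99 and 0.98). AL591582.1, named Gm19605 in the annotation, lies within 1 Mb beyond Dio3. The log2 fold changes of the genes named here lay between -0.07 and 0.19.

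The table held 7 further genes between Dlk1 and Dio3, and position alone chose them. The gene that passed the filter was Dio3os, listed as AL591207.3 and identified by its coordinates (chr12:110275385-110278172, minus strand), a non-coding transcript that starts beside Dio3 on the opposite strand. Control libraries 1 to 4 gave 8.41, 8.23, 7.38 and 8.96, whereas the Osr2-Cre;Ezh2fl/fl libraries gave 19.7, 23.4, 33.7 and 22.3. The groups were far apart, and library 3 was the highest as it was for Dio3. The mean rose from 8.25 ± 0.657 to 24.8 ± 6.14 (SD, n = 4 each), or 3.00 times. The log2 fold change was 1.45 (SE 0.15, adjusted p = 0.00217 from limma), in a fit in which 1.56% of all genes were called higher and 0.512% lower. The adjusted p from limma was 0.00937 without libraries 2 and 3, with a log2 fold change of 1.25. Dio3 and Dio3os do not overlap in the annotation, and their centred r over the 8 libraries was 0.72. Whether transcripts of either gene run past their annotated ends was not tested.

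Another transcript toward Dio3, 3110009F21Rik, listed as AC091458.3 (chr12:110151654-110158077, minus strand), showed the same direction at a low level. The controls were at 0.382, 0.322, 0.275 and 0.275 and the Osr2-Cre;Ezh2fl/fl libraries at 0.588, 1.06, 1.09 and 0.916, which is 15 to 23 and 30 to 76 reads. The groups did not overlap. It was under the filter, and without any filter its log2 fold change was 0.54 (SE 0.09, adjusted p = 0.0205 from limma), or 0.41 without libraries 2 and 3. The other 5 had overlapping groups and mean values under 0.5: Gm26945 inside Rian on its strand, Gm37899, Gm3379 (listed as AC121872.2), Gm40576 (AC091458.2) and 4930425K24Rik (AC091458.4). Reads of Gm26945 cannot be told from those of Rian, nor, without strand, those of Gm26906 from those of Meg3, which it overlaps on the opposite strand.

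The genes on each side of the domain were tested next. Within 1 Mb beyond Dlk1 and within 1 Mb beyond Dio3 the table held 34 genes, of which 24 passed the filter, 10 and 14 on each side. Of these, 0 were called by limma and 0 had an unadjusted p under 0.05, where 2.07% of all genes tested were called in either direction and 13.1% had an unadjusted p under 0.05. At a share of 2.07%, a count of 0 among 24 genes is near the background. Over all 8 libraries their log2 fold changes ran from -0.25 to 0.14 with a median of -0.00, and the lowest adjusted p from limma was 0.414. Without the libraries lacking Ddx3y, 0 were called and 1 had an unadjusted p under 0.05, the log2 fold changes ran from -0.40 to 0.23, and the lowest adjusted p from limma was 0.236, for Dync1h1. The nearest gene tested on the Dlk1 side was Begain, 385 kb away, with means of 7.95 ± 0.643 and 8.74 ± 0.993 (SD, n = 4 each) and a log2 fold change of 0.12 (SE 0.10, adjusted p = 0.743 from limma). On the Dio3 side it was Ppp2r5c, 166 kb away, a regulatory subunit gene of protein phosphatase 2A, with a log2 fold change of 0.03 (SE 0.05, adjusted p = 0.921 from limma).

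**Figure D3:**
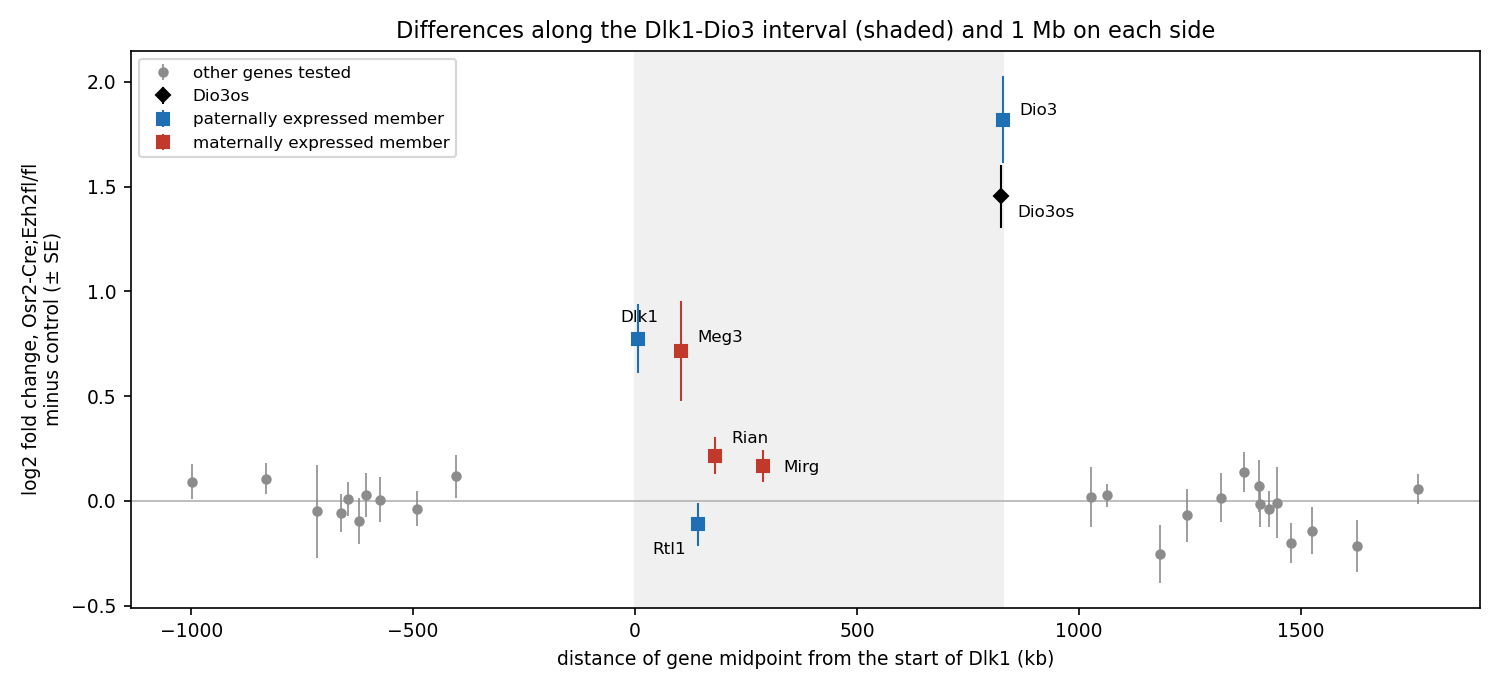
Log2 fold change on the log2(value + 1) scale, with whiskers of 1 SE, against the distance of each gene's midpoint from the start of Dlk1 in kb, with the Dlk1-Dio3 interval shaded. Dio3 (1.82) and Dio3os (1.45) stand highest at the right end of the interval, Dlk1 (0.77) and Meg3 (0.72) lie at the left end, and the 24 flank genes lie between -0.25 and 0.14.

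Genes of related roles were then examined in lists, beginning with thyroid hormone, the substrate of Dio3. Of 16 listed genes 12 passed the filter, and 1 was lower and 0 were higher by limma's test (median log2 fold change -0.04), where 0.512% of all genes tested were lower and 1.56% higher. The gene that fell was Dio2, which encodes the deiodinase that activates thyroid hormone and so has the opposite action to Dio3. The controls were at 11.0, 8.15, 12.3 and 9.51, above 4.32, 4.93, 4.37 and 5.58 with Osr2-Cre, with no overlap. The mean of 10.2 ± 1.78 in control was 4.80 ± 0.587 in Osr2-Cre;Ezh2fl/fl molars (SD, n = 4 each), or 0.469 times, with a log2 fold change of -0.95 (SE 0.13, adjusted p = 0.00775 from limma). The call was lost without libraries 2 and 3 (adjusted p = 0.0997 from limma). Ncor1, a corepressor of the thyroid hormone receptors and the listed gene with the highest mean value, had a log2 fold change of -0.14 (SE 0.10, adjusted p = 0.671 from limma).

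Of 7 paternally expressed genes of an imprinted growth network outside the domain, all passed the filter, 2 were called higher and 0 lower, and all 7 had positive log2 fold changes (median 0.53). Of all genes tested, 1.56% were called higher, 54.1% lay above 0 on the log2 scale, and the median was 0.01. The 7 genes, like those of the other lists, were listed with earlier results known, so their count is a description. Plagl1, a zinc finger transcription factor, was at 199, 183, 146 and 157 in the control libraries, against 297, 438, 387 and 433 with Osr2-Cre. Every Osr2-Cre;Ezh2fl/fl library was above every control. Its log2 fold change was 1.18 (SE 0.14, adjusted p = 0.00463 from limma), and the adjusted p was 0.0842 without libraries 2 and 3. Slc38a4, an amino acid transporter gene, was at 16.5, 18.1, 14.7 and 15.8 against 30.4, 34.9, 34.8 and 34.0, again with no overlap. Its log2 fold change was 1.00 (SE 0.08, adjusted p = 0.000821 from limma), and without libraries 2 and 3 the adjusted p was 0.025.

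Of 4 maternally expressed genes of that network, 0 were called by limma, and 2 were higher at an unadjusted p under 0.05, against 8.27% of all genes tested. Their log2 fold changes ran from 0.01 to 0.37. H19, a non-coding RNA and the gene with the highest mean value among them, ranged from 380 to 927 in control and from 515 to 1289 in Osr2-Cre;Ezh2fl/fl libraries (log2 fold change 0.33, SE 0.33, adjusted p = 0.799 from limma). A difference between the paternal and the maternal list was not tested.

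**Figure D4:**
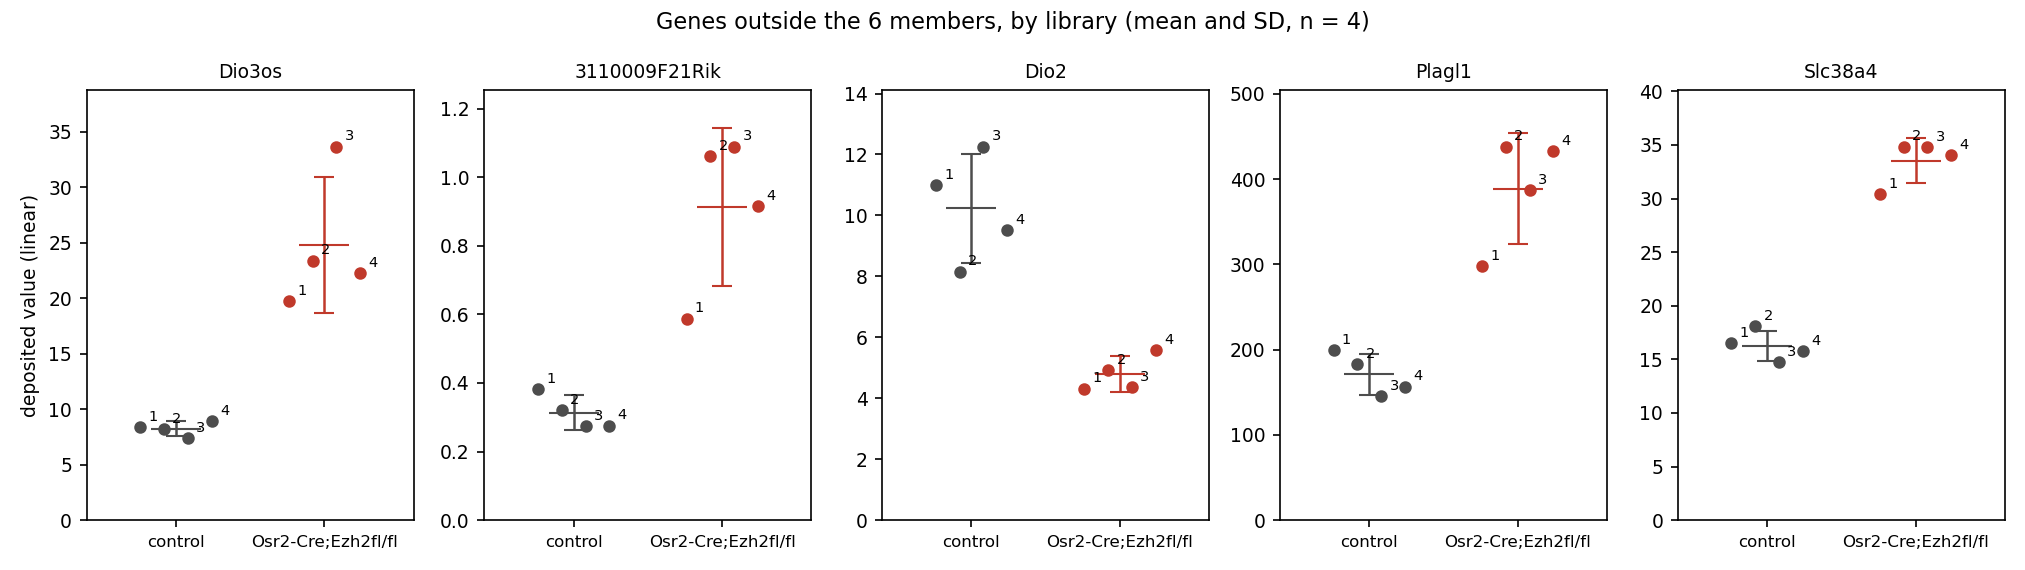
Deposited values on linear axes from 0 for 5 genes outside the 6 members, with a point for each library numbered 1 to 4 and the mean and 1 SD of each group (n = 4). Dio3os, 3110009F21Rik, Plagl1 and Slc38a4 are higher and Dio2 is lower in all 4 Osr2-Cre;Ezh2fl/fl libraries, with no overlap.

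Proteins that keep imprints, such as DNA methyltransferases, the KRAB zinc finger proteins Zfp57 and Zfp445 and their partner Trim28, were represented by 14 tested genes of 16. Limma called 0 of them, with 1 higher at an unadjusted p under 0.05, against 8.27% of all genes tested, and their log2 fold changes lay between -0.18 and 0.34. Trim28, with the highest mean value of the list, had means of 222 ± 5.85 and 220 ± 34.1 (SD, n = 4 each). The 7 core PRC2 genes gave 0 calls as well, with 2 lower at an unadjusted p under 0.05, against 4.87% of all genes tested, and the lowest adjusted p from limma at 0.235, for Ezh2. Rbbp7, a histone-binding subunit gene with the highest mean value over all 8 libraries (219.6 ± 6.36 in control, against 222.2 for Rbbp4), had a log2 fold change of 0.03 (SE 0.07, adjusted p = 0.927 from limma).

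Of 11 genes of the Notch pathway with Dlk2, the closest relative of Dlk1, 1 was lower and 0 were higher, beside the shares of 0.512% and 1.56% over all genes tested. This was Notch1, with values of 101 to 108 in control and 73.7 to 89.7 in Osr2-Cre;Ezh2fl/fl libraries (log2 fold change -0.40, SE 0.07, adjusted p = 0.0241 from limma). The call was lost when control library 2, 3 or 4 or Osr2-Cre;Ezh2fl/fl library 3 or 4 was left out, while the adjusted p from limma was 0.0401 without both libraries 2 and 3. Notch2, with the highest mean value of the list, had a log2 fold change of -0.01 (SE 0.10, adjusted p = 0.983 from limma). Of the relatives of Rtl1, 9 of 11 were tested, 7 with positive and 2 with negative log2 fold changes. At an unadjusted p under 0.05, 2 were higher and 1 lower, against 8.27% and 4.87% of all genes tested. Limma called 0 higher and 1 lower, the latter against the same 0.512%. This was Arc, a gene of neuronal activity derived from a retrotransposon, at a low level. Its mean was 1.50 ± 0.319 in control and 0.551 ± 0.296 in Osr2-Cre;Ezh2fl/fl molars (SD, n = 4 each), and its log2 fold change was -0.70 (SE 0.15, adjusted p = 0.0499 from limma), a call that did not hold when any library other than control 1 or Osr2-Cre;Ezh2fl/fl 4 was left out, nor without both libraries 2 and 3 (adjusted p = 0.298 from limma). Rtl8a, listed as Cxx1a and with the highest mean value of the relatives, had a log2 fold change of 0.13 (SE 0.08, adjusted p = 0.538 from limma).

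Markers of other cell types moved with the groups in some cases. The summed values of the 4 bone markers were 298 to 388 in control and 529 to 723 in Osr2-Cre;Ezh2fl/fl libraries, with 1 called, Ibsp, a bone matrix protein gene (log2 fold change 1.87, SE 0.17, adjusted p = 0.00126 from limma, and 0.0191 without libraries 2 and 3). The difference in the sum came from Ibsp: the other 3 summed to 190 to 247 in control and 199 to 233 in Osr2-Cre;Ezh2fl/fl libraries, with log2 fold changes of -0.40 for Bglap, 0.03 for Sp7 and 0.51 for Ifitm5. The 5 endothelial markers summed to 317 to 356 and 279 to 303, with 0 called by limma and 3 lower at an unadjusted p under 0.05, against 4.87% of all genes tested. Among the 8 dental mesenchyme markers, 1 was called, Lhx8 (log2 fold change 1.17, SE 0.14, adjusted p = 0.00509 from limma, and 0.0803 without libraries 2 and 3). At an unadjusted p under 0.05, 4 of the 8 were higher, against 8.27% of all genes tested, and besides Lhx8 the groups did not overlap for Prrx1 (log2 fold change 0.50, SE 0.11, adjusted p = 0.0599 from limma) and Twist1 (0.32, SE 0.09, adjusted p = 0.118 from limma). The part of these differences in the values of the domain was not tested. Skeletal muscle is a tissue in which the domain's genes are known to be active. Of its 8 markers 5 were in the table, without Myod1, Myf5 and Myog, and they summed to 5.74 to 41.8 in control and 1.42 to 9.48 in Osr2-Cre;Ezh2fl/fl libraries. Control library 4 had the highest muscle sum and also the highest enamel epithelium sum of all 8 libraries. In it Dlk1, Meg3, Rian and Mirg had their lowest values, while Dio3, at 27.5, was second among the controls. The part of muscle or epithelial transcripts in these values was not tested. The odontoblast sum had means of 2331 in control and 1236 in Osr2-Cre;Ezh2fl/fl libraries. Only library 3 of the latter, at 2466, lay within the control range of 1524 to 3013. The sums of odontoblast, Schwann cell, macrophage and erythroid markers thus overlapped between the groups. Limma called 0 genes of these lists or of the enamel and muscle lists, and at an unadjusted p under 0.05 there were 2 of 3 odontoblast and 1 of 7 enamel markers lower and 0 in the rest, beside the same 4.87%.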

How the data were processed

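Expression was measured by RNA-seq (75 single-end cycles) in 8 libraries of molar mesenchyme from mice at postnatal day 3, 4 from Ezh2fl/fl (control) and 4 from Osr2-Cre;Ezh2fl/fl mice. Groups and replicate numbers were taken from the sample titles. The submitters' processing notes name CASAVA 1.8.2, STAR 2.5.3a, Partek and build mm10, while the paper's methods name TopHat and RPKM. The deposited table holds a scaled signal per gene, made by the authors. It was not treated as RPKM or counts, because it has no length factor and 62.5% of low values are whole multiples (within 0.02) of the library's smallest value. Reads were estimated as the value over that smallest value, minus 1, and no count test was run.

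The 6 members and all gene lists were chosen with earlier results of these data known. Of 20926 genes, the 14854 that reached a value of 1 in 4 or more libraries were tested on log2(value + 1) with limma 3.58.1 in R 4.3.3 (trend, Benjamini-Hochberg adjustment over all genes tested, threshold 0.05). The SE of a member or of a ratio is from the spread within the 2 groups, and that of any other gene is from limma. The procedure was tested on simulated data. Named were the 6 members, all rows between them, the nearest tested flank genes, called genes of each list plus the gene of its highest mean value where fewer than 2 were called, the 3 genes most like Dlk1, Meg3, Rian and Mirg, and the cell type markers. An item that this rule would name is not reported here. Annotation was GENCODE on GRCm38, matched by identifier and coordinates. Correlations of deviations between libraries of the same replicate number were -0.34, -0.08, 0.22 and -0.43. They show no steady pairing but cannot exclude one. Alternatives were 2 pseudocounts, 2 scalings, 2 filters, a replicate block, no trend, other lengths and each library left out. Leaving out both libraries without Ddx3y was chosen after seeing the data.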

Additional observations from a re-analysis of the deposited data

Results flagged for a closer look

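In 38 groups of 4 libraries examined (the members, the genes between them, the called list genes and Ezh2), 2 held a library far from the other 3 on the log2(value + 1) scale. About 1.9 of 38 would be found by chance. The Ezh2 value of control library 1 was 55.0, while control libraries 2 to 4 lay between 38.3 and 39.6. AC091458.2 (Gm40576) was 0.736 in Osr2-Cre;Ezh2fl/fl library 3 against 0.288 to 0.341 in the other 3. No group of the 6 members had such a library.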

How the results depend on the processing

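For the 6 members, 88 of 90 alternative log2 fold changes lay within 1 SD of the reported value and 0 changed sign. Leaving out 1 of 4 libraries cannot move a difference by 1 SD, and the replicate block leaves it unchanged. Those runs therefore had to lie within 1 SD and are no evidence of stability. The value for Meg3 ran from 0.43 to 0.87 over all settings. Rtl1 moved to -0.37 with a pseudocount of 0.1 and to -0.43 as the log2 ratio of group means. The ratios of Meg3 to Dlk1 and Dio3 moved by less than 1 SD under all alternatives run, although the small difference of the ratio to Dlk1 ran from -0.30 to -0.01 with each library left out. Here too, leaving out 1 library could not move a ratio by 1 SD.

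Counts over all genes tested were less stable. The 232 genes higher and 76 lower became 88 and 31 with a filter at a value of 10 and 41 and 8 without the 2 libraries lacking Ddx3y. Each library left out gave 108 to 332 higher and 21 to 97 lower, and the counts moved by over 1.5 times without control library 2, 3 or 4 or Osr2-Cre;Ezh2fl/fl library 2 or 4. With the replicate block they were 64 and 9. Libraries of the same replicate number showed no steady correlation, but this cannot exclude that they were paired. A call lost under the block is therefore less certain. Under the block Dio3os kept its call (adjusted p = 0.0242 from limma), as did Plagl1 and Slc38a4, and the thyroid, Notch and Rtl1-relative lists held 0 calls each.

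Between and beside the members, 2 genes were called in place of 1 without a filter, and 1 with each library left out. The paternal network list held 1 call in place of 2 without the libraries lacking Ddx3y. The thyroid list held 0 in place of 1 there and with the filter at 10. The Notch list held 0 to 2 with each library left out. The list of Rtl1 relatives held 0 to 1 with each library left out, and 0 with either other pseudocount, with the filter at 10 and without the libraries lacking Ddx3y. The filter at 10 removed Dio2 and Arc before testing, so their calls could not be made there. Where these counts changed otherwise, the cause was not tested. Genes with few reads, such as Rtl1, limit what can be seen at this depth.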
